A study of Mus musculus with 18 samples.

Results

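The subject here is a set of 433 bins of the mouse genome that were methylated in splenic T cells and nearly free of methylation in hindlimb muscle. They were chosen by measured values of methyl-binding domain sequencing (MBD-seq). A bin of 500 bp on chromosomes 1 to 19 was taken when its normalized read count was at least 40 in T cells and at most 4 in muscle, at both 2 and 20 months of age. Of 4783931 such bins 433 met these limits, and none of the 326033 bins of the X chromosome did. The values at 28 months took no part in the choice.

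MBD-seq and RNA-seq data came from female C57BL/6J mice of 2 months (young, 2 m), 20 months (aged, 20 m) and 28 months (superaged, 28 m), without a genetic change or a treatment. For MBD-seq the DNA of 3 mice was pooled for each age and tissue, and the capture of muscle DNA was repeated on the same pools, giving 9 libraries. The table holds 6 columns, 1 for each age and tissue, and those of muscle do not say whether they hold the first capture, the repeat or their sum. No column has a replicate between mice, so no test between ages was possible for methylation, and the tissues were not tested against each other because the bins were chosen by that difference. The T cells were pan-T cells isolated from spleen with magnetic beads, and muscle was whole hindlimb tissue, which holds vessels, connective tissue and blood beside its fibres. RNA was sequenced from the muscle of the same mice one by one, with 3 libraries for each age.

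Methylation of cytosine in CpG dinucleotides is kept through cell division and is dense over most of the mammalian genome. Cell types differ from each other mainly at short stretches where transcription factors bound during development and the DNA lost its methylation, often within introns and away from gene starts. Such a stretch stays methylated in cell types that do not use it. In MBD-seq, fragments that carry methylated CpGs are bound by a methyl-CpG-binding domain, so the read count of a bin rises with both the methylation and the number of its CpGs.

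The muscle columns held 135254786 to 141889499 reads on bins and the T-cell columns 188758989 to 200456498. These totals exceed the average number of reads that the paper gives per age group. The reason was not tested, so a counted read may not be a separate fragment. After scaling by the authors, 1 read stood for 0.64 to 1.32 normalized counts, so a muscle limit of 4 allowed at most 4 reads. Over all autosomal bins the muscle median was 8.19 at 2 m, 9.26 at 20 m and 13.4 at 28 m, and bins with 40 or more in both tissues had muscle medians of 70.96, 60.6 and 37.0. The 28-m muscle values were thus flatter than the others. Within 1 kb of the starts of 6 muscle fibre genes (Acta1, Ckm, Ttn, Myh4, Tnnt3 and Atp2a1), the mean value was at most 12.1 in muscle and at least 22.9 in T cells at every age. Around the starts of 6 T-cell genes (Cd3e, Cd3d, Cd3g, Lck, Cd247 and Cd2) it was 9.14 in 2-m T cells against 34.0 in 2-m muscle, whereas it was 25.8 and 29.6 in 20-m and 28-m T cells against 35.2 and 23.5 in muscle. The T-cell label was therefore borne out clearly by the 2-m library, less so by the 20-m library, and not by the 28-m library at these starts.

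Sequences of 8 of the bins show what was captured. They were taken from the RefSeq sequence of GRCm38 (mm10), on the plus strand, as the 240 bases of the bin richest in CpGs outside untranslated exons (for Klf9, weighted for the E-box). Capitals mark every CpG and every E-box CAGCTG. The bins at Klf9 and Jup lie in the longest runs, those at Slc2a4 and Casq2 at starts of muscle genes, those at Runx1 and Lck in genes known from T cells, the bin at Jakmip1 had the highest T-cell values, and the bin at Arhgef26 had the highest 28-m muscle value of any bin printed here.
Klf9, intron, chr19:23143646-23143885: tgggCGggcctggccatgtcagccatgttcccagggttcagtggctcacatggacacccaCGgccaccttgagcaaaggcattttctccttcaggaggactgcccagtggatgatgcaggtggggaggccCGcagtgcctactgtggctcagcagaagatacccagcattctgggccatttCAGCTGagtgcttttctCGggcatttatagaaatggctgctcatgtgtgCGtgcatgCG
Jup, intron, chr11:100395254-100395493: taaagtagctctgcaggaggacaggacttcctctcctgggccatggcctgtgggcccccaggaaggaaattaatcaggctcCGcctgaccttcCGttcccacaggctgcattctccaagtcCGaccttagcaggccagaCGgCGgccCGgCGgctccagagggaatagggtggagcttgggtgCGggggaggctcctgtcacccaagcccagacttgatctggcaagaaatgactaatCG
Slc2a4, intron, chr11:69947559-69947798: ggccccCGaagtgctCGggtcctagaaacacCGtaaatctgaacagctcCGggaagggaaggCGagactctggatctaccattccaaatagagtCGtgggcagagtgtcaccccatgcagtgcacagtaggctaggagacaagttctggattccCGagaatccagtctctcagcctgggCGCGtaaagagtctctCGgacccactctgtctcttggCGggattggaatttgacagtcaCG
Casq2, upstream of the start, chr3:102086025-102086264: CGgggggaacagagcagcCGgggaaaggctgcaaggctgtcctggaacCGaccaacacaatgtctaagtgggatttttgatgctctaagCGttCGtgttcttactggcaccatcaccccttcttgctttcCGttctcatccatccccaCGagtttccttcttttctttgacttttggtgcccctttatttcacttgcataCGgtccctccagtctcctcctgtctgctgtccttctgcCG
Runx1, intron, chr16:92695080-92695319: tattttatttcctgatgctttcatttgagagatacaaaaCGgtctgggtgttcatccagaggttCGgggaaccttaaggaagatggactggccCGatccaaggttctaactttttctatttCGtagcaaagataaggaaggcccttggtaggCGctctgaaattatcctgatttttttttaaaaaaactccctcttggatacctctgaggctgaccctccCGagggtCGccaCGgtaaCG
Lck, partly coding exon, chr4:129555501-129555740: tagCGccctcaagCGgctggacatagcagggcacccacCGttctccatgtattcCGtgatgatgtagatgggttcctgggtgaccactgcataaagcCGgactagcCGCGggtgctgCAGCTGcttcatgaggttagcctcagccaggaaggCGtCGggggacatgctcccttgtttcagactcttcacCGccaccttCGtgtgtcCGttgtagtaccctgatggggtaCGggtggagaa
Jakmip1, partly coding exon, chr5:37091180-37091419: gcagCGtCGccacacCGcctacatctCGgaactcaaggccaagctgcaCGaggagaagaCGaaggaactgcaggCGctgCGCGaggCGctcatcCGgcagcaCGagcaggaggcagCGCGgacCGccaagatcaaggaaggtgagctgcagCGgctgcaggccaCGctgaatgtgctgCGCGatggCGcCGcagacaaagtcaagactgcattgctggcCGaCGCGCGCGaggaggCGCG
Arhgef26, partly coding exon, chr3:62339681-62339920: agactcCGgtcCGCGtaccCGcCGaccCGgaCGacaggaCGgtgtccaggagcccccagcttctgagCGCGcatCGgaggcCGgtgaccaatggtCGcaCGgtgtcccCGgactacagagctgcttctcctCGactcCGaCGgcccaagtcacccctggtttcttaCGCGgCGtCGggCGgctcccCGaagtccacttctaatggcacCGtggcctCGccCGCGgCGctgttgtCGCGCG
The window at Jakmip1 held 28 CpGs and that at Arhgef26 held 32, whereas the window at Klf9 held 6 CpGs and 1 E-box. The members thus range from CpG islands to stretches with few CpGs.

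By choice, the members were low in muscle and high in T cells at the younger ages. Their median normalized count was 1.82 in 2-m muscle and 1.68 in 20-m muscle, against 53.8 and 62.1 in T cells of the same ages. At the limits of the rule, the 129 members whose lower T-cell value was under 45 had a median of 43.6 in 2-m T cells, and the 179 bins that missed only by a lower T-cell value of 35 to 40 had a median of 38.6. The 155 members with a muscle value over 3 had a median of 3.64 in 2-m muscle, and the 166 bins left out for a muscle value of 4 to 5 had a median of 4.55. These values follow from the limits. At 28 m, the medians inside and outside the T-cell limit were 51.5 and 43.6 in T cells and 5.74 and 7.01 in muscle, and those inside and outside the muscle limit were 7.01 and 8.29 in muscle.

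At 28 m, which the choice did not use, the members stayed methylated in T cells and gained signal in muscle without reaching the T-cell level. In 28-m T cells the median was 62.1 (quartiles 47.6 and 80.6), and 368 of 433 members (85.0%, exact 95% interval 81.3 to 88.2) were still at 40 or more. In 28-m muscle the median was 5.74 (quartiles 3.82 and 8.92), and 320 members (73.9%, 69.5 to 77.98) lay above 4. A total of 93 members (21.5%, 17.7 to 25.7) still met both limits. These intervals cover counting over bins only and not differences between mice.

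**Figure D1:**
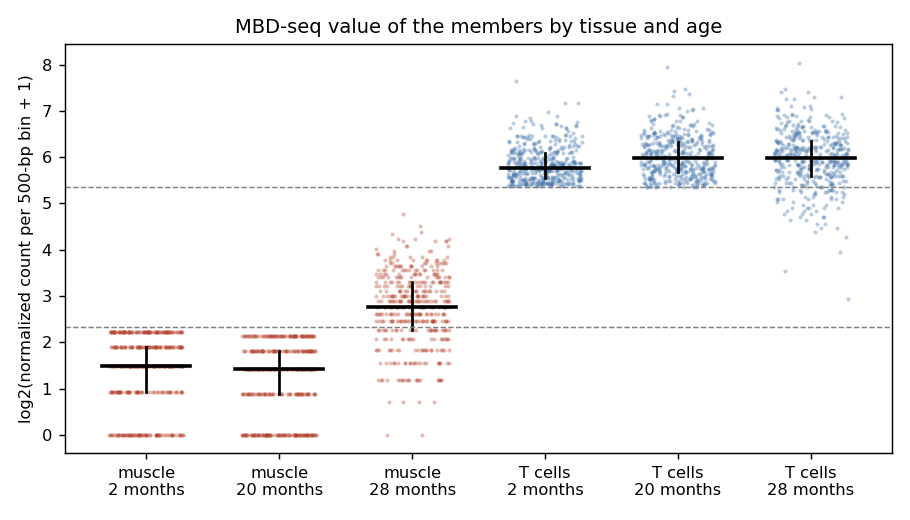
Each point is 1 of the 433 bins, the vertical axis gives log2 of the normalized count plus 1, and the columns are the 6 combinations of tissue and age (each from 1 pool of 3 mice). Thick lines are medians, vertical bars quartiles, and dashed lines the limits of 4 and 40. In 28-m muscle the bins spread from 0 to 26.1 normalized counts, below all but a few of the T-cell points.

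In sums of reads, the mean muscle level of the members was 1.97 normalized counts at 2 m (exact Poisson 95% interval 1.85 to 2.10), 1.62 at 20 m (1.51 to 1.73) and 6.73 at 28 m (6.53 to 6.92). The intervals cover counting error only. The 28-m mean was 3.41 times the 2-m mean. In T cells the means were 59.0, 67.5 and 66.7, so that muscle held 3.34% of the T-cell level at 2 m, 2.40% at 20 m and 10.1% at 28 m. These shares depend on the scaling. With all libraries set to an equal sum, the 126 members had 28-m medians of 10.8 in muscle and 50.4 in T cells, against 5.74 and 62.1 as given.

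Single bins moved in the same way. The 28-m muscle value was above both earlier ages in 386 members (89.1%) and below both in 14. It was above both in 55.7% of all autosomal bins. Among bins with the same muscle limits but under 40 in T cells, that share was 91.2%. On log2 of the value plus 1, the members gained 1.35 on average in muscle between 2 m and 28 m (SD over bins 0.96), and 0.10 in T cells (SD 0.52). The sign of the T-cell change depends on the scaling. Setting the libraries to an equal sum multiplies T-cell values by 0.853 at 2 m and 0.681 at 28 m. More than 2-fold higher muscle values at 28 m than at 2 m were found in 282 members (65.1%), against 36.1% of all autosomal bins, and more than 2-fold lower values in 7 members (1.62%), against 7.77%. Since the members were chosen for low muscle values at 2 m, a higher share of rises is built into the choice. In T cells 10 members were more than 2-fold higher (2.31%, against 10.8% of all bins) and 10 were more than 2-fold lower (2.31%, against 21.1%). Most of all bins have few T-cell reads, so the choice at 40 or more also bears on this comparison, and among the 606174 bins with 40 or more in T cells at both earlier ages 3.29% were more than 2-fold higher and 0.667% more than 2-fold lower.

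None of the members reached 40 in 28-m muscle, and in none did muscle equal T cells. Muscle values of at least 10 were seen in 85 members and of at least 20 in 2. These 2 were chosen for naming after their values were seen. One lay within 1 kb of a start on chromosome 18, at the zinc finger gene Zfp516 and the RNA gene 4930592I03Rik (3.64, 1.68 and 26.1 in muscle by age), and the member next to it reached 14.02. The other lay at the start of Arhgef26 (2.73, 1.68 and 21.7 in muscle against 41.6, 133 and 133 in T cells). At the other end, 48 members stayed at 2 or below in 28-m muscle and 2 had no read. T-cell values of 20 or less at 28 m occurred in 5 members, the lowest of them at a start of the RNA gene Gm12974 (42.6, 63.3 and 6.61 by age). The others were near Btd (biotinidase, 10.6 at 28 m), at starts of 4932435O22Rik (14.5) and Stom (stomatin, 19.8), and on chromosome 1 away from any gene (18.5).

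Other bins with the same low muscle values showed what 28-m muscle did in general. A total of 1262088 autosomal bins had at most 4 in 2-m and 20-m muscle and under 40 in T cells. Their muscle mean went from 1.22 at 2 m to 6.04 at 28 m, which was 4.97 times, and 74.3% of them were more than 2-fold higher. The gain of the members in muscle was therefore not particular to bins methylated in T cells. Most of these bins held few CpGs, with a median of 1 against 10 in the members.

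At equal numbers of CpGs the members lay above the other low bins in level at 28 m, except in the class with fewest CpGs, and below them in ratio. The 28-m muscle mean of the other low bins fell from 8.49 at 3 to 5 CpGs to 6.13 at 6 to 8, 4.43 at 9 to 12, 3.79 at 13 to 20 and 3.35 above 20 CpGs. The members had 7.75, 7.49, 6.66, 5.94 and 6.94 in the same classes, with 13, 101, 184, 107 and 28 bins. In the class with 9 to 12 CpGs, the counting interval of the members was 6.36 to 6.96. Over 20 CpGs it was 6.19 to 7.77. The 2-m means of the members were also higher than those of the other bins in every class, 1.94 against 1.23 at 9 to 12 CpGs, and the ratio of 28 m to 2 m was lower in every class, 3.44 for members and 3.60 for other bins there, and 3.50 and 4.43 above 20 CpGs.

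**Figure D2:**
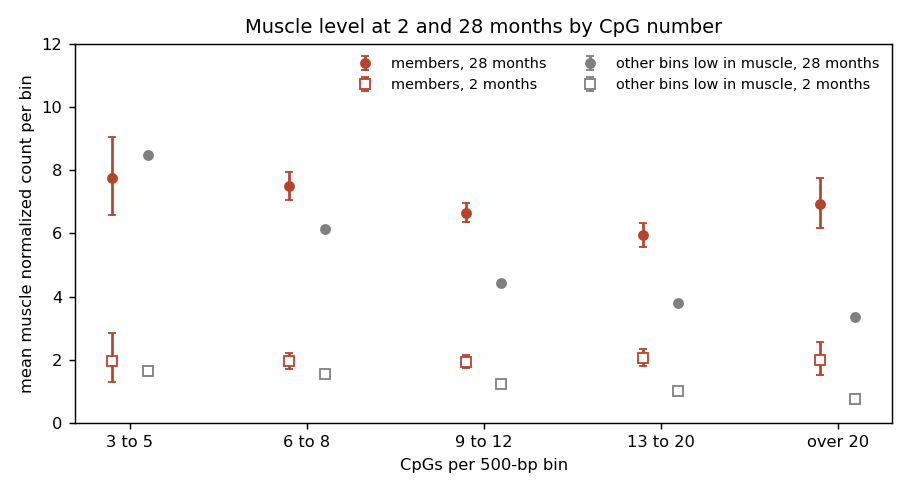
Mean normalized count in muscle per 500-bp bin (vertical axis) by number of CpGs (horizontal axis), for members (red) and other bins low in muscle (grey), at 28 m (filled circles) and 2 m (open squares), with exact Poisson 95% intervals. Above 5 CpGs the members lie above the other low bins at both ages, most widely above 20 CpGs (6.94 against 3.35 at 28 m).

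The order differed when low bins of 6 to 20 CpGs were split by T-cell level. The 12232 low bins with at most 4 in T cells had a 28-m muscle mean of 3.95, those with over 4 to 10 had 6.35, those with over 10 to 20 had 6.91, those with over 20 to 40 had 7.11, and the 392 members in this range had 6.68. Bins open in both tissues were thus lowest, and above 4 in T cells the muscle mean at 28 m changed little with the T-cell level. Among bins of 6 to 20 CpGs with 2 or 3 muscle reads over the 2 earlier ages, the 28-m mean was 6.21 in members and 4.62 in other bins, and with 6 to 8 reads it was 8.40 and 7.55.

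As a share of the bins with 40 or more in both tissues, the members' muscle median was 2.56% at 2 m, 2.78% at 20 m and 15.5% at 28 m. In T cells the same share was 70.7%, 70.8% and 64.4%. The reverse set, 273 bins with at least 40 in muscle and at most 4 in T cells at the younger ages, also gained signal in its open tissue, with T-cell medians of 1.02, 1.22 and 3.97 by age. Its muscle medians were 56.4, 52.2 and 30.0. Of the 606174 bins with 40 or more in T cells at 2 m and 20 m, 93.9% kept that level at 28 m, against 85.0% of the members, which began nearer to the limit (2-m T-cell median 53.8 against 65.98).

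Across the members, T-cell values went together between ages, with a Spearman correlation of 0.50 between 2 m and 28 m and 0.56 between 20 m and 28 m. Values in 28-m muscle had a Spearman correlation of 0.20 with 2-m muscle and -0.02 with 28-m T cells. These 433 points share the same DNA pools, and the muscle values rest on few reads. The number of CpGs had a Spearman correlation of 0.38 with the 28-m T-cell value and -0.14 with the 28-m muscle value.

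The rule used the values of the member and not those of its neighbours, so a step between them at 2 m and 20 m is built into the choice, and the profile is a description. In bins 500 bp to either side, the muscle median at 2 m was 3.64, and it rose to 10.01 and 8.64 at 1 kb and to 16.4 and 13.6 at 5 kb. The T-cell median fell from 53.8 in the member to 24.4 and 23.9 in the next bins and 17.8 and 18.8 at 5 kb. The 28-m muscle median was above the 2-m median at every distance up to 4.5 kb on both sides (14.02 against 10.01 at 1 kb to the left), and at 5 kb the medians were 16.3 against 16.4 on the left and 15.9 against 13.6 on the right. The means went the other way from 1 kb outward. At 28 m against 2 m the muscle mean was 15.5 against 17.5 and 14.5 against 16.7 at 1 kb. It was 18.6 against 24.4 and 18.4 against 23.4 at 5 kb. Only in the members and the bins at 500 bp were both median and mean higher at 28 m on both sides. Of the direct neighbours, 5.08% and 5.09% were members themselves, and 41.1% and 44.7% met the muscle limit.

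**Figure D3:**
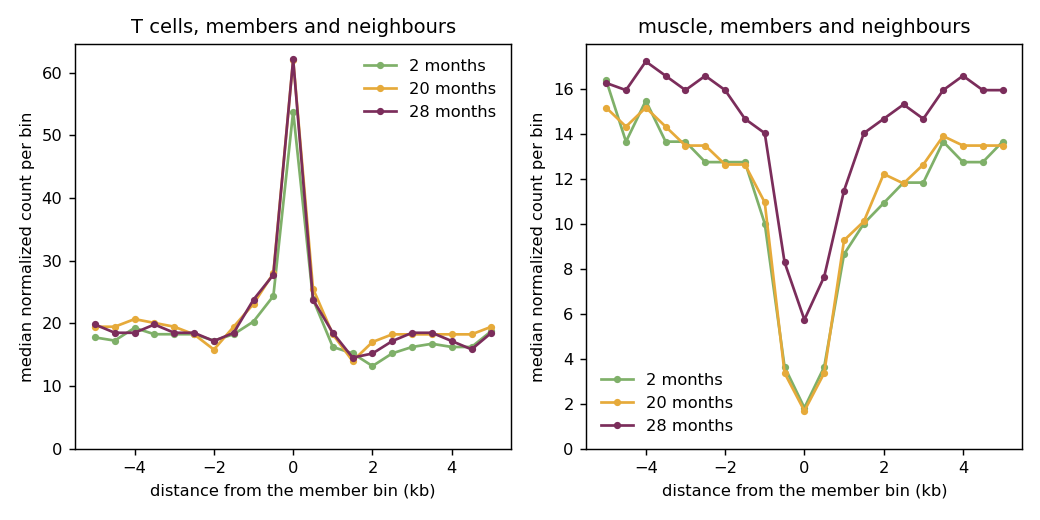
Median normalized count of the 433 members and of the 10 bins on each side (vertical axis) by distance from the member in kb (horizontal axis), T cells left and muscle right, 1 line per age. The muscle trough is at 1.82 at 2 m, 1.68 at 20 m and 5.74 at 28 m, and its neighbours at 500 bp are at 3.64, 3.37 and 7.65 to 8.29.

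Most members stood alone. Of 433 bins, 391 had no adjacent member, 36 formed 18 pairs and 6 formed 2 runs of 3, so that 42 bins (9.70%, exact 95% interval 7.08 to 12.9) were in a run. When members within 10 kb were joined, 66 bins lay in 29 groups, and within 100 kb 131 bins lay in 55 groups. The highest density was on chromosome 19 (26 members, 22.4 per 100000 bins) and the lowest on chromosome 14 (8 members, 3.30 per 100000 bins). Relative to bins with 40 or more in T cells, chromosome 19 had 1.43 members per 1000 such bins and chromosome 14 had 0.316.

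The group with most members was at Klf9, a Krüppel-like transcription factor that responds to glucocorticoid and thyroid hormone. Its 6 members lay within 10.5 kb (chr19:23136501-23147000), 1 upstream of the start and 5 in the intron, of which 3 were adjacent (chr19:23143001-23144500). In order along the chromosome their 28-m muscle values were 4.46, 11.5, 4.46, 2.55, 1.27 and 1.27, after 0 to 1.82 at 2 m and 0 to 2.53 at 20 m. Their T-cell values were 44.7 to 69.02 at 2 m, 42.6 to 81.5 at 20 m and 34.4 to 89.9 at 28 m. The second bin of the run of 3 held 3 E-boxes, 1 of which stands in the sequence above. The Klf9 group thus kept very low muscle values at 28 m in 2 of its 6 bins. The microRNA gene Mir1192 lies within 5 kb of 3 of these bins.

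The other run of 3 lay in an intron of Jup (chr11:100395001-100396500), which encodes plakoglobin, a protein of desmosomes and adherens junctions, and also falls within 5 kb of the RNA gene Gm12348. By bin, muscle went from 0.91, 2.73 and 1.82 at 2 m to 7.65, 5.10 and 7.01 at 28 m. T cells went from 46.7, 44.7 and 54.8 to 29.1, 56.8 and 52.9. The first of these bins was the 1 of the 3 below 40 in 28-m T cells.

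Of the 18 pairs, the first 8 in genome order are described. The highest T-cell values of these were in a coding exon of Jakmip1 (chr5:37091001-37092000), a microtubule-associated protein. Its 2 bins had 198 and 102 in 2-m T cells and 263 and 152 in 28-m T cells, against 1.82 in 2-m, 0 in 20-m and 8.92 and 5.74 in 28-m muscle. Intronic pairs lay in Tgfbr3 (betaglycan, a co-receptor of TGF-beta), Adamtsl2 (a secreted glycoprotein of microfibrils), Zfp831 (a zinc finger gene) and Schip1 (with Iqschfp, a transcript that overlaps it). One bin of the Schip1 pair reached 17.2 in 28-m muscle and the other 7.65. The Adamtsl2 pair stayed at 1.91 and 6.37. Further pairs lay in Morn1, near Rhof, and at chr5:111531001-111532000, where no gene lay within 5 kb and 28-m muscle stayed at 1.27 and 1.91.

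By location, 190 members (43.9%) were intronic, 144 (33.3%) intergenic, 70 (16.2%) within 1 kb of a curated RefSeq start, 21 (4.85%) in coding exons and 8 (1.85%) in other exons. Starts were more frequent than among all autosomal bins (2.64%) and among bins with 40 or more in both tissues (2.36%), both outside the exact interval of 12.8 to 20.0% of the members. Coding exons were less frequent than in bins methylated in both tissues (17.3%, against an interval of 3.03 to 7.32%). The reverse set stood closer to the members, with 25.6% at starts, 5.86% in coding exons and a median distance to a start of 10.5 kb, so the location was not particular to the members. The median distance to a start was 10.9 kb in the members, against 51.1 kb for all bins, and 86 members lay over 50 kb from any start. In 28-m muscle, members at starts had a median of 5.42, intronic members 6.05 and intergenic members 6.37, which differ by little against quartiles of 2.71 to 7.65 at starts.

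The members were rich in GC (median 52.0%, against 41.8% for all bins) and poor in repeats. Soft-masked bases, which mark repeats, made up 10.1% of the members, 33.5% of all bins and 30.1% of bins methylated in both tissues. The reverse set was much like the members in both (GC 50.2%, 11.8% masked). The composition of a CpG island (GC of at least 50% and an observed over expected CpG ratio of at least 0.6) was found in 14 members (3.23%, against 0.689% of all bins and 2.23% of bins methylated in both tissues), and 55 others (12.7%, against 3.39% of all bins) lay within 2 kb of a bin of that kind. The 14 island-like members had medians of 6.69 in 28-m muscle and 86.6 in 28-m T cells.

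Motif letters were counted on both strands within each bin. The E-box CAGCTG, which is bound by MyoD and myogenin, the factors that drive muscle differentiation, was found in 194 members (44.8%, exact 95% interval 40.1 to 49.6). It was in 17.3% of all autosomal bins, 23.5% of bins methylated in both tissues, 27.7% of those whose GC content and CpG number lay within the members' quartiles, 15.8% of the other bins low in muscle and 26.4% of the reverse set. The TEAD site GGAATG, known from muscle gene promoters, was in 165 members (38.1%, 33.5 to 42.9), against 25.1%, 23.8%, 24.8%, 26.1% and 19.4% in the same order. Both shares were thus higher in the members than in each of these sets, while the members also held fewer masked bases.

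The AP-1 site TGANTCA was in 21.2% of members (17.5 to 25.4) against 14.4% of all bins and 18.7% of the reverse set. The MEF2 box was in 9.70% (7.08 to 12.9) against 11.2% of all bins, 4.90% of bins methylated in both tissues and 2.19% of those with similar GC content and CpG number, so its direction depends on the set compared. The RUNX site TGTGGTTT, known from T-cell enhancers, was in 6 members (1.39%, interval 0.510 to 2.99), against 4.30% of all bins, 3.16% of bins methylated in both tissues, 11.4% of the reverse set and, inside the interval, 2.95% of the bins with similar GC content and CpG number. The GATA site AGATAAG was in 4.16% of members (2.48 to 6.49) against 7.27% of all bins, but the 5.66% of bins methylated in both tissues and the 6.23% of the reverse set lay inside this interval. The ETS site CCGGAAGT was in 5 members (1.15%, 0.376 to 2.67) against 0.315% of all bins, and again the 0.772% of bins methylated in both tissues lay inside the interval. The MEF3 site TCAGGTTN (7.16% against 7.76% of all bins), the CArG box (13 members, interval 1.61 to 5.08%, against 2.92%) and the ERR site TCAAGGTCA (1.62% against 1.09%) had all-bin shares inside the members' intervals, and the long palindrome of NFI was in none. A match of letters is not a bound site. Members with and without an E-box had medians of 5.74 and 6.37 in 28-m muscle and of 64.8 and 60.8 in 28-m T cells.

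**Figure D4:**
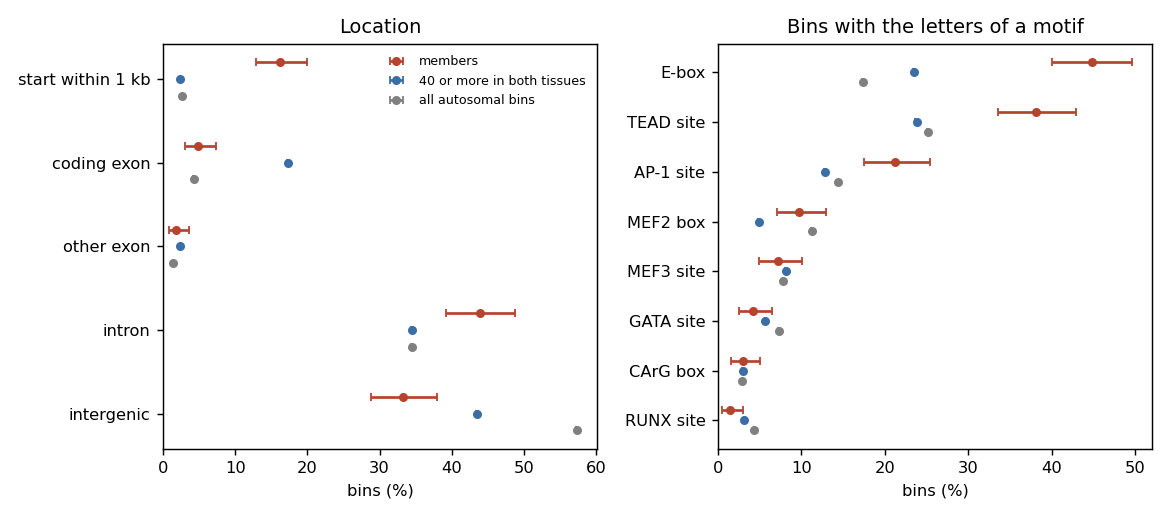
Share of bins in % (horizontal axis) by location (left) and by motif letters (right), for the 433 members (red), bins with 40 or more in both tissues (blue) and all autosomal bins (grey), with exact binomial 95% intervals, which are smaller than the points for the larger sets. The members stand to the right for starts (16.2%), the E-box (44.8%) and the TEAD site (38.1%).

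A gene was assigned to a member when its span with 5 kb on each side held the bin. This gave 333 genes for 325 members (1.33% of 24963 curated autosomal genes), and 108 members had no gene. Of these genes 297 held 1 member, 27 held 2, 8 held 3 and 1, Klf9, held 6. The genes with 3 were Tns1 and Tns2 (tensins, which tie integrins to actin), Bmf (a BH3-only protein of apoptosis), Hspg2 (perlecan of the basement membrane), Nfic (a nuclear factor I transcription factor), Jup, Gm12348 and Mir1192. Cstad and the RNA gene Morrbid had 2 each.

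Of all curated autosomal genes 1.33% had a member, and the gene lists are read against this share. None of 45 sarcomere genes, 27 genes of the dystrophin complex and membrane repair, 39 Hox genes, 22 endothelial genes or 23 ubiquitous genes on the autosomes had a member. Among genes of excitation and calcium 3 of 30 had 1, namely Cacng1 (a subunit of the skeletal muscle calcium channel), Casq2 (calsequestrin, the calcium buffer of slow and cardiac muscle) and Chrne (the adult subunit of the acetylcholine receptor). Muscle metabolism had 2 of 27 (Slc2a4, the insulin-responsive glucose transporter, and Aldoa, an aldolase of glycolysis), myogenic and limb transcription factors 3 of 44 (Nfia, Meis2 and Tead1), collagen and matrix 2 of 27 (Hspg2 and Lamc1, a laminin chain), and T-cell identity 2 of 35 (Lck, the kinase of the T-cell receptor, and Runx1). Together 12 of 319 listed genes had a member (3.76%, against 1.33% of all genes). A longer gene span can hold more bins, and the lists were not matched to all genes in length, so these shares were not tested. The shares were 10% for excitation and calcium, 7.41% for metabolism, 6.82% for transcription factors, 7.41% for matrix and 5.71% for T-cell identity, each on 2 or 3 genes.

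The bins at these genes behaved differently from one another at 28 m. The bin at the start of Slc2a4 (chr11:69947501-69948000) had 1.82, 3.37 and 11.5 in muscle and 50.8, 85.2 and 58.2 in T cells by age. That at the start of Casq2 had 1.82, 3.37 and 11.5 in muscle and 54.8, 43.8 and 72.7 in T cells. The bin in an intron of Tead1 went from 0 to 10.8 in muscle. These 3 bins thus had higher muscle values at 28 m than at both earlier ages.
The bin near Chrne (chr11:70622001-70622500) had 3.64, 1.68 and 1.27 in muscle, and the bin of Lamc1 2.73, 2.53 and 2.55. That of Aldoa, which it shares with its neighbour Ppp4c, had 2.73, 3.37 and 3.19 in muscle while T cells went from 40.6 to 100. The muscle value at 28 m was below that at 2 m near Chrne and in Lamc1, and between the 2 earlier values at Aldoa. All of these lie near the floor, where 1 read stood for 0.91 normalized counts at 2 m, 0.84 at 20 m and 0.64 at 28 m. The 2-m and 28-m values of Lamc1 differed by less than the value of 1 read.
In the 2 T-cell genes, the bin of Lck had 0, 0.84 and 7.01 in muscle and 87.3, 116 and 157 in T cells, and the bin of Runx1 had 1.82, 1.68 and 4.46 in muscle and 54.8, 91.3 and 122 in T cells. Bins methylated in T cells were thus present inside 2 genes that T cells use, beyond 2 kb from the nearest start of each. The 2 members of Nfia had 8.29 and 5.10 in 28-m muscle, and the bin in Meis2 had 8.92.

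RNA was not used to choose the bins. Of the 333 genes, 311 were in the RNA table and 258 passed the filter of a mean of at least 10 normalized counts. At 2 m, genes with a member had a median of 134 normalized counts per kb of transcript, against 14.3 for all 23189 matched genes. The median stayed close to this level at 20 m (127) and 28 m (131). The 82 genes with a member within 1 kb of a start had a median of 81.9 at 2 m. More of the genes with a member passed the filter (83.0%) than of all genes (56.6%).

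Between 28 m and 2 m, 26 of the 258 genes rose (10.1%, exact interval 6.69 to 14.4) and 25 fell (9.69%, 6.37 to 13.97), by limma on the log2 scale (1 added to each normalized count) at an adjusted p under 0.05. The background over all 13178 genes was 7.53% up and 6.24% down, which lies inside or just below these intervals. The median log2 fold change was -0.04 for the genes with a member and -0.01 for all genes. Leaving out some libraries lowered these counts and those over all genes. Without the first 2-m library they were 15 and 17 (4.64% and 3.76% of all genes), without the first 28-m library 17 and 18 (3.95% and 3.35% of all genes) and without the third 28-m library 15 and 15 (4.24% and 3.93% of all genes). Without all 3 libraries numbered 3, which had the lowest sums of normalized counts at each age, they were 13 and 14 (3.04% and 2.37% of all genes). Each library was 1 mouse by the study's methods, so the p-values measure the spread between mice.

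The largest rise was in Runx1, which in muscle is known to be induced by denervation. It had 165, 127 and 96.0 normalized counts at 2 m, 284, 530 and 209 at 20 m and 1046, 863 and 706 at 28 m. All 28-m libraries were above all others (log2 fold change against 2 m of 2.76, SE 0.29, limma adjusted p = 9.5e-05). Against 20 m the log2 fold change was 1.44 (SE 0.29, limma adjusted p = 0.066), and this passed without the second or the third 2-m library or the second 20-m library (adjusted p of 0.0103 to 0.046), with the replicate number as a block (0.0098), with a term for the libraries numbered 3 (0.0083) and by DESeq2 (0.036). Pcp4l1 had 675, 726 and 941 at 2 m, 3103, 1927 and 2624 at 20 m and 2393, 1910 and 2350 at 28 m (1.51, SE 0.17, limma adjusted p = 0.00013). Rapgef4, the cAMP sensor Epac2, had 82.5, 79.3 and 93.1 at 2 m and 220, 200.3 and 208 at 28 m (1.29, SE 0.18, limma adjusted p = 0.00049). In both genes the 20-m libraries were already above the 2-m libraries.

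The largest falls were in genes with low levels. Adamtsl2 had 114, 75.8 and 120 at 2 m, 18.7, 15.2 and 27.2 at 20 m and 39.8, 24.9 and 22.6 at 28 m (log2 fold change -1.80, SE 0.37, limma adjusted p = 0.0065). Abca4, a lipid transporter, had 89.2, 22.9 and 98.2 at 2 m and 13.3, 18.0 and 11.3 at 28 m (-2.001, SE 0.62, limma adjusted p = 0.050). Ccdc149 had 86.9, 40.5 and 81.6 at 2 m and 30.4, 30.4 and 22.6 at 28 m (-1.23, SE 0.37, limma adjusted p = 0.045). The groups did not overlap in these 3 genes, but the calls of Abca4 and Ccdc149 were lost without any 1 library other than the second of 2 m (adjusted p up to 0.18 and 0.15), and that of Adamtsl2 without all libraries numbered 3 (adjusted p = 0.10).

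Of the listed genes, Cacng1 rose from 8949, 7346 and 8089 at 2 m to 12574, 11782 and 10928 at 28 m (log2 fold change 0.54, SE 0.09, limma adjusted p = 0.0027). Nfia fell from 3297, 3392 and 2893 to 2266, 2098 and 1950 (-0.60, SE 0.11, limma adjusted p = 0.0037). Lamc1 fell by 0.37 on the log2 scale (SE 0.09, limma adjusted p = 0.018), a call lost without the third 2-m library or the first or second 28-m library (adjusted p of 0.055 to 0.064). Casq2 was called at 0.79 (SE 0.24, limma adjusted p = 0.046), but its 2-m libraries had 1667, 3933 and 1929 and overlapped the 28-m libraries at 3922, 4255 and 3958, and the call was lost without any 1 library but the second of 2 m or of 20 m.
Klf9 had 7333, 7724 and 6027 at 2 m, 8474, 8021 and 8101 at 20 m and 6118, 6146 and 6049 at 28 m. It did not pass the test against 2 m (-0.20, SE 0.09, limma adjusted p = 0.17) or against 20 m (-0.43, SE 0.09, limma adjusted p = 0.072), although its 28-m libraries lay below all 20-m libraries. Leaving out the third 2-m library gave a call in both comparisons (adjusted p of 0.024 and 0.014), leaving out the second gave one against 20 m (adjusted p = 0.036), and against 20 m it was also called by DESeq2 on recovered reads (adjusted p = 0.0027), with the replicate number as a block (0.024) and with a term for the libraries numbered 3 (0.022). Slc2a4 (-0.14), Aldoa (-0.20), Tead1 (0.03), Chrne (0.07), Meis2 (-0.74), Hspg2 (-0.07), Nfic (-0.04), Jup (0.17), Tns2 (0.02), Bmf (-0.17), Tgfbr3 (0.03), Schip1 (0.01), Morn1 (-0.03) and Morrbid (-0.55) did not pass it against 2 m either. Tns1 (0.27, limma adjusted p = 0.056) missed the threshold but was called with quantile normalization, with the replicate number as a block, with a term for the libraries numbered 3, without the second 2-m library and by DESeq2 (adjusted p of 0.013 to 0.038).
Lck, Jakmip1, Zfp831, Rhof, Cstad, Mir1192 and Iqschfp were under the filter, and Lck had 0 to 6.91 normalized counts in every muscle library.

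**Figure D5:**
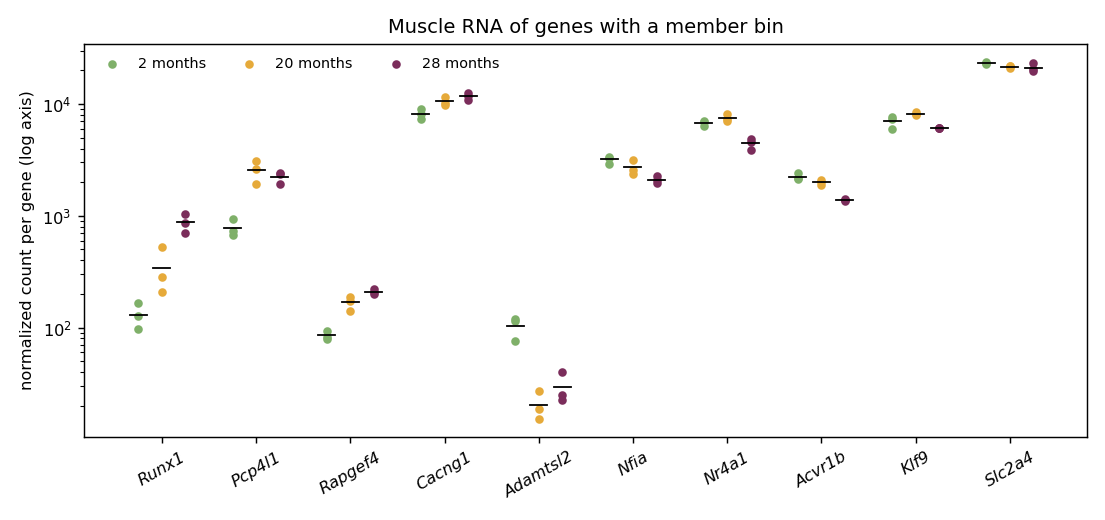
Normalized RNA count per gene (vertical axis, logarithmic) for 10 genes with a member (horizontal axis), 1 point per mouse, colours for age and a black line for each mean. Runx1, Pcp4l1 and Rapgef4 lie higher at 28 m than at 2 m, Adamtsl2, Nfia, Nr4a1 and Acvr1b lie lower, and Slc2a4 and Klf9 did not pass the test.

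The lists as a whole, members or not, are read against 7.53% up and 6.24% down of all genes at 28 m against 2 m. Of 46 tested sarcomere genes 20 rose and 4 fell, of 30 excitation and calcium genes 9 rose and 6 fell, of 28 metabolism genes 2 rose and 7 fell, and of 41 transcription factors 7 rose and 3 fell. Of 28 collagen and matrix genes none rose and 17 fell (median log2 fold change -0.56), among them the member gene Lamc1. The dystrophin list had 4 up and 4 down of 26, Hox genes 4 and 4 of 26, endothelial genes 2 and 0 of 22, T-cell genes 1 and 1 of 12 (Runx1 rose) and ubiquitous genes 4 and 2 of 25. Against 20 m a single gene of all lists was called, Myog, which encodes myogenin and rose.

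Further genes that were called, named after their values were seen, were the clock genes Cry2 (log2 fold change 0.92) and Nr1d1 (-0.54), the growth factor gene Igf1 (-1.09), Lmna, which encodes the nuclear lamins A and C (0.34), Rcan1, an inhibitor of calcineurin (0.67), Lgals3, a lectin of macrophages (1.26), and the nuclear receptors Rara (-0.45) and Rxra (-0.29). The bins at the 26 risen genes had a median of 5.74 in 28-m muscle, those at the 25 fallen genes 5.10, and those at the 207 genes that were not called 6.37, with quartiles of 3.98 and 9.56 for the last. The methylation signal at 28 m was thus similar at genes whose RNA rose and at genes whose RNA fell.

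Between 28 m and 20 m, no gene with a member rose and 2 fell by limma with an adjusted p under 0.05, against 0.212% up and 0.167% down of all genes. At an unadjusted p under 0.05, 16 rose (6.20%, against 5.15% of all genes) and 28 fell (10.9%, against 5.44%). Without the second 2-m library the counts were 2 and 4 (0.379% and 0.288% of all genes), and without the third 2-m library 1 and 5 (0.266% and 0.235% of all genes). On the recovered reads edgeR called 0 and 2, and DESeq2 called 4 and 8 (0.933% and 0.797% of all genes). Nr4a1, an orphan nuclear receptor and immediate early gene, had 8132, 7321 and 7029 at 20 m and 4590, 4878 and 3894 at 28 m (log2 fold change -0.75, SE 0.09, limma adjusted p = 0.0027), and at 2 m it had 7012, 6354 and 6947. Acvr1b, a type I receptor for activin and myostatin, had 1876, 2094 and 2010 at 20 m and 1385, 1363 and 1408 at 28 m (-0.52, SE 0.08, limma adjusted p = 0.014), after 2418, 2137 and 2167 at 2 m. The 28-m libraries of both genes were below all others. The call of Acvr1b was lost without any 1 of the 20-m or 28-m libraries (adjusted p of 0.052 to 0.070). The 2 contrasts share the 28-m libraries. The bin at Nr4a1, 596 bases from a start, had 1.82, 1.68 and 2.55 in muscle, and the intronic bin at Acvr1b 3.64, 2.53 and 10.2.

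Some markers of other cells moved in the RNA beside these results. The summed level of 4 fibroblast genes (Col1a1, Col1a2, Col3a1 and Pdgfra) was 38898 to 87593 normalized counts at 2 m, 7711 to 9107 at 20 m and 8425 to 11488 at 28 m, and the 3 collagens fell at 28 m against 2 m. Pdgfra was not called, with 1306 to 1672 at 2 m and 1330 to 1474 at 28 m, so the fall of the sum was that of the collagens. The 4 adipocyte genes gave 5610 to 7899 at 2 m and 4296 to 6093 at 28 m, and Cidec, a lipid droplet protein, was called. Macrophage, endothelial and B-cell genes had none called. The 4 B-cell genes summed to 15.9 to 172 at 2 m, 47.2 to 118 at 20 m and 19.3 to 118 at 28 m. The first 2-m library was the highest of these (Cd79a at 78.0, against 3.52 and 1.44 in the others of 2 m). The 6 T-cell genes summed to 32.1 to 80.1 in every library and the 6 fibre genes to 6243704 to 7963369. Of the red blood cell genes, Hba-a1 was at 0 throughout. Alas2, the erythroid enzyme of heme synthesis, had 99.6 to 825 at 2 m, 204 to 295 at 20 m and 322 to 366 at 28 m and was not called. In whole tissue fewer cells of a type and less RNA per cell cannot be told apart, and the part of these cells in the RNA and methylation values was not tested.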

How the data were processed

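MBD-seq came from 9 libraries of pooled DNA of 3 mice, 1 for T cells and 2 captures of the same pool for muscle at each of 3 ages, and RNA-seq from 9 muscle libraries, 3 for each age. Per the labels and the study's methods, the authors used Trim Galore for trimming and Bowtie2 for alignment of MBD-seq to mm10, counted reads in 500-bp bins with bedtools, and divided counts by DESeq2 size factors. The labels name TopHat and the methods Hisat2 for RNA, counted with HTSeq. The deposited normalized counts are a scaled signal, and 100% of values were whole multiples of the value of 1 read. RNA libraries held 20203833 to 71115244 reads on genes, and 5 summary rows (37.9 to 47.7% of the normalized sums) were left out. The table has 6 columns, and the muscle columns do not say which capture they hold or whether they sum both.

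Bins were annotated with curated RefSeq transcripts of GRCm38. A bin within 1 kb of a start was a promoter bin, then coding exon, other exon, intron and intergenic were assigned in this order. Exact Poisson and binomial intervals (95%) cover counting only, and the Poisson ones take each counted read as separate. RNA was tested with limma 3.58.1 (R 4.3.3, trend) on log2(value + 1) with age as the factor, for genes with a mean of at least 10, with Benjamini-Hochberg adjustment over 13178 genes. Such fold changes understate low genes. In simulated data for 28 against 2 months, 194 of 200 changed genes were recovered and 8 unchanged genes were called. Alternatives included edgeR 4.0.16 and DESeq2 1.42.0 on recovered reads, other limits, scalings, pseudocounts and gene assignments, and leaving out each library. Genes named were the 12 with most members, those at the 10 longest runs (ties in genome order), up to 3 per list with most members, and the 3 largest rises and falls per contrast among called genes without overlap. The members and lists were chosen with earlier results of these data known. Same-numbered RNA libraries were not paired by the labels, and their deviations had correlations of -0.04 to 0.16.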

Additional observations from a re-analysis of the deposited data

How the results depend on the processing

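The number of members depended on the limits and the scaling. It was 898 with at least 30 in T cells, 113 with at least 60, 172 with at most 2 in muscle, 1626 with at most 8, 1511 from the 2-month values alone and 126 with all libraries set to an equal sum. The median in 28-m muscle was 5.10, 8.29, 8.92 and 10.8 with at most 2, at most 8, 2-month values alone and the equal sum. That in 28-m T cells was 51.5 with at least 30, 87.2 with at least 60, 51.5 from 2-month values alone, 50.4 with the equal sum and 57.1 with the equal sum without the 1000 bins with most reads, a scaling added after seeing the data, which gave 395 members. The median log2 change in muscle (1.35 with the limits as given) was 1.54 with at most 2, 0.95 with at most 8, 2.00 with the equal sum, 1.59 from 2-month values alone, 1.62 with a pseudocount of 0.25 and 0.69 with 5. It was positive in each of these, but every rule also chose low 2-m muscle values, which builds in a rise.

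For RNA at 28 m against 2 m, leaving out 1 library gave 15 to 26 genes up and 15 to 22 down (3.95 to 7.64% and 3.35 to 6.37% of all genes), and leaving out all 3 libraries numbered 3, added after seeing the data, 13 and 14 (3.04% and 2.37% of all genes). At 28 m against 20 m, leaving out 1 library gave 0 to 2 up and 1 to 5 down (0.0607 to 0.379% and 0.0455 to 0.288% of all genes). There 1 fell with genes taken without flanks, with the nearest start within 50 kb, or without the libraries numbered 3. Quantile normalization gave 1 up (0.228% of all genes) and a term for the libraries numbered 3 gave 2 up and 6 down (0.379% and 0.402%). DESeq2 gave 4 up and 8 down (0.933% and 0.797%). With the replicate number as a block, 2 rose and 6 fell against 20 m (0.486% and 0.562% of all genes), and 34 rose and 32 fell against 2 m (10.4% and 8.81% of all genes). The block also gave calls for Tns1 against 2 m and for Klf9 and Runx1 against 20 m. The correlation of deviations was above 0.1 only in the 3 pairs numbered 3, so the numbers were not taken to pair the samples. Of the values of named genes under these alternatives, 992 stayed called or stayed not called, 43 lost and 17 gained a call. The cause was not tested. With 1 pool per age, the methylation values have no replicate error.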
